A study of Mus musculus with 3 samples.

Results

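The 9 genes described here are the transcription factors Runx1, Runx2, Runx3, Erg, Fli1, Etv6, Elf1 and Ets1 of the Runx and ETS families, with Cbfb, the partner subunit of the Runx proteins. They were chosen by symbol among the 32285 genes of the count matrices, and all 9 had at least 1 UMI (a unique molecular identifier, 1 captured RNA molecule) in each library. Single cells of mouse bone marrow were measured in 3 droplet libraries that count the 3′ ends of transcripts. LSK is the gate of cells that lack mature lineage antigens and carry Sca-1 and Kit, LK is the gate of lineage-negative cells with Kit, and TBM is total bone marrow. The labels name no genotype, treatment, sex, age or number of mice for any group, nor do they say if the LK gate excluded cells with Sca-1. Each gate is 1 library, so no difference has a replicate check, no test between gates is possible, and every interval given is a 95% interval for counting error only.

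Runx proteins bind DNA through a Runt domain, and Cbfb, which does not itself contact DNA, strengthens that binding. Runx1 is needed for blood stem cells to form in the embryo and for platelet and lymphocyte development, Runx2 is best known as the master regulator of bone-forming cells and also acts in plasmacytoid dendritic cells, and Runx3 acts in cytotoxic T cells. ETS proteins share a DNA-binding domain that reads a GGAA core: Erg maintains adult stem cells, Fli1 drives megakaryocytes, Etv6 is a repressor needed by marrow stem cells, Elf1 is widely expressed in blood cells, and Ets1 acts in lymphocytes.

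After filtering, LSK held 1067 cells, LK 3461 and TBM 4217, with 11836820, 49936180 and 21958139 UMIs and medians of 9688, 13683 and 3347 UMIs per cell. The stem cell gene Mecom stood at 125 CPM (counts per 1000000 UMIs) in LSK cells with RNA of the stem cell marker Procr alone, and at 36.5 CPM in such cells of LK. The stem cell genes Hoxb5 and Fgd5 had no UMI in TBM. TBM was shallower and held neutrophil, erythroblast and B lineage RNA, so shares of cells are given after random thinning of every cell to 2000 UMIs, which left out 30.5% of TBM cells, 0.260% of LK cells and no LSK cell. Between 6 and 26 cell barcodes were shared by a pair of libraries, out of 1091 barcodes in LSK, 3560 in LK and 4317 in TBM. Within a library, fewer cells with a transcript and fewer molecules per cell both lower the CPM. Counts of 3′ ends depend on each gene's own transcript end, so the CPM of different genes are not ranked against each other.

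Cells were also sorted into classes by RNA of single lineage markers. A cell was positive for Procr (stem cells), Flt3 (lymphoid-primed progenitors and dendritic cells) or Cd3e (T cells) at 1 UMI, for Cd79a (B lineage) at 3, for Pf4 (megakaryocytes), Car1 (erythroid progenitors) or F13a1 (monocyte lineage) at 5, and for Elane (neutrophil-committed progenitors) at 20. S100a8 with S100a9 (neutrophils) and the globin genes (erythroblasts) each needed 5% of a cell's UMIs. A class holds the cells positive for that marker alone, and 16 classes across the libraries had at least 20 cells. The largest were 1518 S100a8 and 1281 Cd79a cells in TBM and 884 Elane cells in LK. LSK held 232 Procr and 306 Flt3 cells, and LK held 81 Procr, 490 Flt3, 93 Pf4 and 345 Car1 cells. A class is a set of cells with that RNA and not a cell type: Elane RNA, for instance, was at 113 CPM even in the Car1 class of LK, against 12869 CPM in the Elane class.

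In the mouse genome (build GRCm38) Runx1 lies on chr16:92601466-92826149, Runx2 on chr17:44495987-44814797, Runx3 on chr4:135120652-135177990 and Cbfb on chr8:105170674-105217989. Erg lies on chr16:95359169-95586593, Etv6 on chr6:134035700-134270158, Elf1 on chr14:79481194-79582494, and Fli1 and Ets1 are neighbours on chr9:32422204-32542861 and chr9:32636221-32757820. The 5′ ends of Runx2 and Elf1 overlap Supt3 and Wbp4 on the opposite strand. Whether the deposited counts were restricted to the sense strand is not given in the sources used here, and a 3′ kit does not show which promoter a transcript started from.

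Among the RefSeq start sites matched to 7 of the members, the window before the distal Runx3 start was the one holding the 6-base Runx core motif more than once, and it is shown because Runx3 was the member that differed most between the Procr and Flt3 cells of LSK. The sequence covers 250 bases upstream of that start, on the plus strand at chr4:135120395-135120644 (GRCm38.p6), which lies before the annotated first exon. Capitals mark the 2 copies of ACCACA, the motif TGTGGT read on the other strand.
Runx3: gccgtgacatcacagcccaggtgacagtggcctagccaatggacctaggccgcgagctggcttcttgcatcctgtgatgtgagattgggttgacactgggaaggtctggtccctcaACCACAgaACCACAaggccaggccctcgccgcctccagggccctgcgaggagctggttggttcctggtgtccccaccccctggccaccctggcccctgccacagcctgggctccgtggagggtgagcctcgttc
The motif TGTGGT was present on either strand in 14.0% of 32851 RefSeq windows of 250 bases. The ETS motif CCGGAAG was present in 6.91% of them and in none of the windows of the 7 members. The GATA motif AGATAA was present in 9.99% of them, and a window of Erg held 1 copy. These letter matches describe the sequence only.

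The Runx genes differed in how they followed the gates. For Runx1, LSK gave 67.0 CPM (62.4 to 71.8), LK 62.2 (60 to 64.4) and TBM 33.7 (31.3 to 36.2). For Runx2, LSK gave 32.6 CPM (29.4 to 36), LK 13 (12 to 14) and TBM 8.79 (7.59 to 10.1). For Runx3, LSK gave 63.3 CPM (58.8 to 68.0), LK 35.6 (34.0 to 37.3) and TBM 14.2 (12.7 to 15.9). Thus Runx1 was nearly level between the progenitor gates, with intervals that overlap, while Runx2 and Runx3 had 3 separate levels in the order LSK, LK, TBM. Cbfb followed the same order with a narrower span than Runx2 and Runx3, at 147 CPM (140 to 154), 111 (108 to 114) and 71.8 (68.3 to 75.4).

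Among the ETS genes, Ets1 was highest in TBM and Erg had the steepest decline from LSK to TBM. The Erg level was 83.8 CPM (78.7 to 89.2) for LSK, 24.8 (23.4 to 26.2) for LK and 9.15 (7.93 to 10.5) for TBM. Etv6 stood at 54.2 CPM (50.1 to 58.6), 32.4 (30.9 to 34.0) and 10.7 (9.38 to 12.2), and Elf1 at 154 (147 to 162), 99.2 (96.4 to 102) and 69.9 (66.4 to 73.4). Fli1 was lowest in LK, at 49.5 CPM (47.6 to 51.5), between 74.4 (69.6 to 79.5) in LSK and 65.5 (62.2 to 69.0) in TBM, and these last intervals lie close to each other. Ets1 had 7.10 CPM (5.66 to 8.79) among LSK cells, 1.84 (1.49 to 2.26) among LK cells and 67.2 (63.8 to 70.7) among TBM cells. Of the 84 Ets1 UMIs in LSK, 1 cell held 5.95%.

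**Figure D1:**
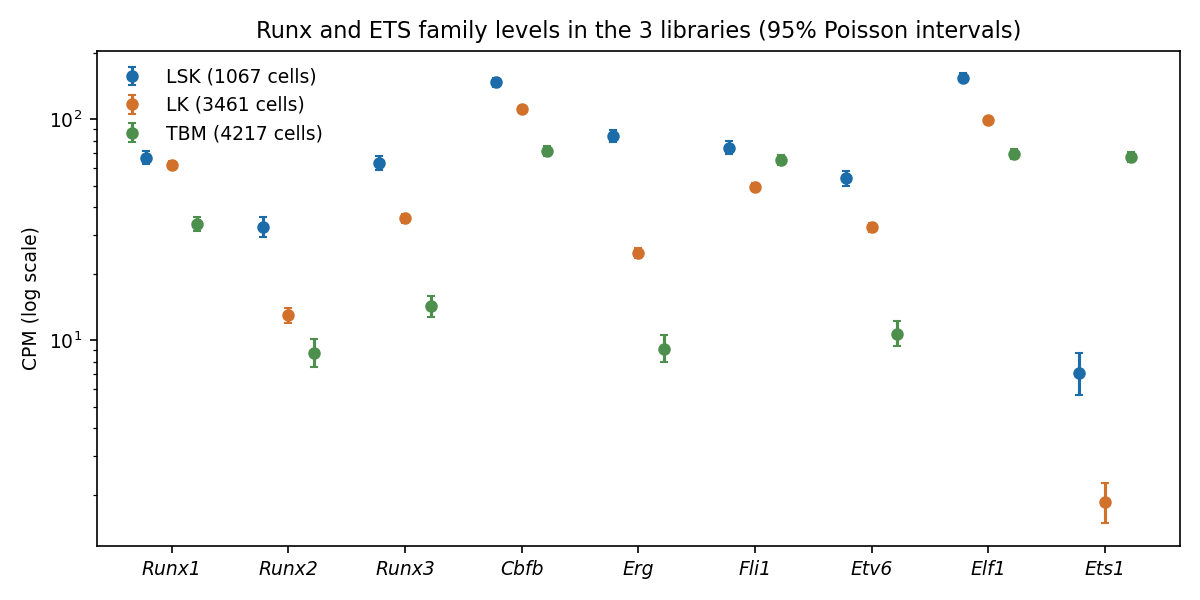
CPM on a log axis for each of the 9 genes in LSK (blue), LK (orange) and TBM (green), with exact Poisson intervals. Erg falls from 83.8 to 9.15 CPM from LSK to TBM, while Ets1 is highest in TBM at 67.2 CPM.

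The shares of cells with a UMI kept these patterns at equal depth. After thinning to 2000 UMIs, Erg was seen in 15.5% of LSK cells (13.3% to 17.8%), 5.45% of LK cells (4.71% to 6.26%) and 1.88% of TBM cells (1.42% to 2.44%). Without thinning these shares were 57.6%, 27.8% and 3.77%. Ets1 was seen in 1.31% of thinned LSK cells (0.719% to 2.19%), 0.492% of LK cells (0.287% to 0.787%) and 13.8% of TBM cells (12.6% to 15.1%). Thinning kept 579 of 1281 Cd79a cells of TBM, 1061 of 1518 S100a8 cells and 383 of 386 globin cells. The thinned TBM shares thus describe a mix with fewer B lineage cells. Runx1 was seen in 13.5% of LSK and 13.6% of LK cells, and its unthinned share was lower in LSK (49.9%) than in LK (55.5%). Runx1 fell to 5.60% in TBM. Cbfb and Elf1 were seen in 25.1% and 26.9% of thinned LSK cells, in 19.8% of LK cells each and in 11.8% of TBM cells each. In the globin class of TBM, globin took most of the UMIs and counted toward the 2000, which lowers the shares. The thinned shares there ran from 0.261% for Runx2, Runx3 and Etv6 to 4.18% for Elf1. They were not the lowest seen, as Erg was in 0% of thinned F13a1 cells of TBM.

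Between LSK and LK, 3 members were at least 2-fold higher in LSK: Runx2, Erg and Ets1. Erg was 3.38-fold higher (log2 ratio 1.76, 1.64 to 1.88), Runx2 2.51-fold higher (1.33, 1.14 to 1.51) and Ets1 3.85-fold higher (1.95, 1.5 to 2.39, on 84 and 92 UMIs). Of the 13016 genes with at least 20 UMIs over both libraries, 19.9% were at least 2-fold higher in LSK and 3.73% at least 2-fold lower, where no member stood. The median log2 ratio was 0.74 over the members and 0.34 over all genes. Runx1 had the smallest ratio, at 0.11 (-0.01 to 0.22), and turned to -0.17 when the libraries were scaled by size factors, which lowers every log2 ratio of this comparison by 0.28.

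Between LK and TBM, Runx3, Erg and Etv6 were at least 2-fold higher in LK and Ets1 was lower, against 27.3% and 16.8% of 13416 genes. The log2 ratios were 1.33 (1.15 to 1.5) for Runx3, 1.44 (1.22 to 1.66) for Erg and 1.60 (1.40 to 1.80) for Etv6. Ets1 was 36.5-fold higher in TBM (log2 ratio -5.19, -5.51 to -4.88), and Fli1 was the other member higher in TBM (-0.41, -0.50 to -0.31). The members' median was 0.63, against 0.37 over all genes. Under size factors, which take 0.35 off each log2 ratio here, Runx3 came to 0.98.

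Between LSK and TBM, 6 members were at least 2-fold higher in LSK, against 36.9% of 12916 genes, and Ets1 was lower, against 13.1%. Erg was 9.16-fold higher in LSK (log2 ratio 3.19, 2.97 to 3.42), Etv6 5.07-fold, Runx3 4.45-fold and Runx2 3.71-fold, while Elf1 (2.21-fold) and Cbfb (2.05-fold) stood just past the 2-fold line and Runx1 (1.99-fold) just short of it. Fli1 was near level at 0.18 (0.06 to 0.31), and turned to -0.48 under size factors and to -0.15 when each cell had equal weight. Size factors take 0.67 off each log2 ratio in this comparison, which puts Cbfb at 0.37 and Elf1 at 0.48. These 3 comparisons share libraries, so their ratios are not independent of each other.

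Runx3 was the 1 member at least 2-fold apart between the Procr and Flt3 classes of LSK. Runx3 stood at 36.4 CPM (28.6 to 45.6) in the Procr class and 75.6 CPM (67.0 to 85.1) in the Flt3 class. The log2 ratio was 1.06 (0.68 to 1.44), and 2.87% of 10182 genes were at least 2-fold higher in the Flt3 class and 5.51% at least 2-fold lower, where no member stood. This call ended when marker thresholds were doubled and when cells positive for both markers were let into both classes. Fli1 stood lower in the Flt3 class (log2 ratio -0.38, -0.66 to -0.10), and so did Erg (-0.29, -0.55 to -0.02). Runx1, Runx2, Cbfb, Etv6, Elf1 and Ets1 had intervals that span 0. In LK, Runx3 stood at 45.2 CPM in the Procr class and 49.5 CPM in the Flt3 class (log2 ratio 0.13, -0.41 to 0.71), and Erg was the member that was lower in the Flt3 class there, by 2.01-fold (-1.01, -1.43 to -0.56). Within the Flt3 class of LSK, the 97 cells with the lymphoid gene Dntt had Fli1 at 53.2 CPM (40.9 to 68.1) against 77.5 (66.9 to 89.3) in the 209 cells without it. Runx3 was at 77.7 and 74.6 CPM in those cells, and the intervals overlapped for both genes.

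Megakaryocyte and erythroid progenitors of LK differed in most members. Fli1 stood at 209.9 CPM (181 to 242) in the Pf4 class and 15.8 CPM (12.3 to 20.2) in the Car1 class, 13.3-fold apart (log2 ratio 3.73, 3.32 to 4.15). The Pf4 class had the highest Fli1 level of all 16 classes. Etv6 was 5.12-fold higher in the Pf4 class (2.36, 1.73 to 2.99), Elf1 3.14-fold (1.65, 1.41 to 1.89) and Runx1 2.93-fold (1.55, 1.14 to 1.95). Erg was higher by 1.23 (0.35 to 2.07) and Runx2 by 1.61 (0.11 to 3.02) on the log2 scale, on 19 and 8 UMIs in the Pf4 class. These 6 of 8 members with at least 20 UMIs stand beside 8.92% of 8859 genes at least 2-fold higher in the Pf4 class and 6.54% at least 2-fold lower, where no member stood.

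Runx3 and Cbfb were the members with the smallest ratios between those classes, at 0.68 (0.24 to 1.11) and 0.57 (0.25 to 0.89), and Ets1 had 5 and 9 UMIs, too few to count. The Cbfb ratio turned to -0.21 with every count marker at 1 UMI and to -0.03 in cells thinned to 2000 UMIs. The members' median was 1.58 and that of all genes 0.03. The count of 6 fell to 2 when every count marker was set at 1 UMI or cells were thinned to 2000 UMIs. Against the Procr class of LK, the Pf4 class had more Fli1 (log2 ratio 1.74, 1.26 to 2.25), less Erg (-1.99, -2.83 to -1.22) and less Runx2 (-2.05, -3.41 to -0.86, on 8 and 25 UMIs). The 93 Pf4 cells carried Pf4 at 5104 CPM and the megakaryocyte integrin Itga2b at 604 CPM, with Klf1 at 22, and the Car1 class carried the erythroid factor Klf1 at 309 CPM.

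F13a1-positive cells and Elane cells of LK were close to each other in these genes. The 8 LK cells positive for F13a1 alone were too few, so all 354 F13a1-positive cells were set against the Elane class. These F13a1-positive cells carried Elane at 6907 CPM. Summed over the neutrophil-committed genes Elane, Prtn3, Ctsg, Mpo, Cebpe and Gfi1 they stood at 24929 CPM, against 37090 in the Elane class. Summed over the monocyte-committed genes F13a1, Irf8, Csf1r, Ly86, Ms4a6c and Klf4 they stood at 1960 CPM, against 475. Both sides of this comparison thus carry much neutrophil-lineage RNA, and it does not set monocyte-committed cells alone against neutrophil-committed cells. Runx1 was higher in them, at 61.2 CPM against 45.7 (log2 ratio 0.42, 0.25 to 0.59), and Fli1 lower, at 32.2 against 49.4 CPM (-0.62, -0.83 to -0.41). The Runx1 ratio turned to -0.15 when every count marker was set at 1 UMI. Ets1 was the member past 2-fold (-2.98, -6.08 to -1.03), on 2 and 36 UMIs, where 3.73% of 10997 genes were at least 2-fold lower and 2.5% at least 2-fold higher. Thinning to 2000 UMIs per cell left 1 and 2 Ets1 UMIs in these cells, a log2 ratio of 0.32, too few to read a direction from. Erg was at 14.5 and 15.3 CPM, Runx2 at 8.59 and 10.5, Runx3 at 21.8 and 20.6, and Etv6 at 28.2 and 28.1 CPM, with ratio intervals that span 0.

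The lymphoid classes of TBM had the highest Ets1 levels. Ets1 stood at 251 CPM (197 to 316) in the 94 Cd3e cells and 200 CPM (186 to 215) in the 1281 Cd79a cells, with overlapping intervals (log2 ratio of Cd79a over Cd3e -0.33, -0.68 to 0.04). Fli1 was at 117 CPM in Cd3e cells and 121 in Cd79a cells (0.05, -0.46 to 0.60). Runx3 was 3.15-fold higher in the Cd3e class, at 62.0 CPM (36.7 to 97.9) on 18 UMIs against 19.7 (15.4 to 24.8), and stood beside 8.7% of 8850 genes at least 2-fold lower in the Cd79a class. Elf1 was 2.02-fold higher in the Cd79a class, at 195 against 96.4 CPM, and Etv6 2.25-fold higher with 1 UMI in the Cd3e class (log2 ratio 1.17, -1.42 to 6.53), beside 15.3% of genes at least 2-fold higher. The count of 3 members fell to 1 when marker thresholds were doubled or when the scale left out globin, S100a8, S100a9, ribosomal protein and mitochondrial genes.

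Erg had 61 UMIs in the Cd79a class and none in the Cd3e class. Set against a floor of 3 UMIs there, Erg came to 1.64-fold higher in the Cd79a class, a value that depends on that floor. From the counts themselves, the lower limit of the interval of the log2 ratio was 0.37. Runx2 was near its lowest in B lineage cells, at 1.11 CPM on 4 UMIs. Of the 94 Cd3e cells, 69 carried a UMI of Nkg7, a gene of natural killer cells and cytotoxic T cells. Runx3 was at 69.4 CPM (39.7 to 113) with Nkg7 and 33.3 CPM (4.03 to 120) without it, and Ets1 at 226 and 350 CPM, each with overlapping intervals. The Cd79a class also carried Jchain, a plasma cell gene, at 2215 CPM, and the part of this RNA in the levels was not tested.

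**Figure D2:**
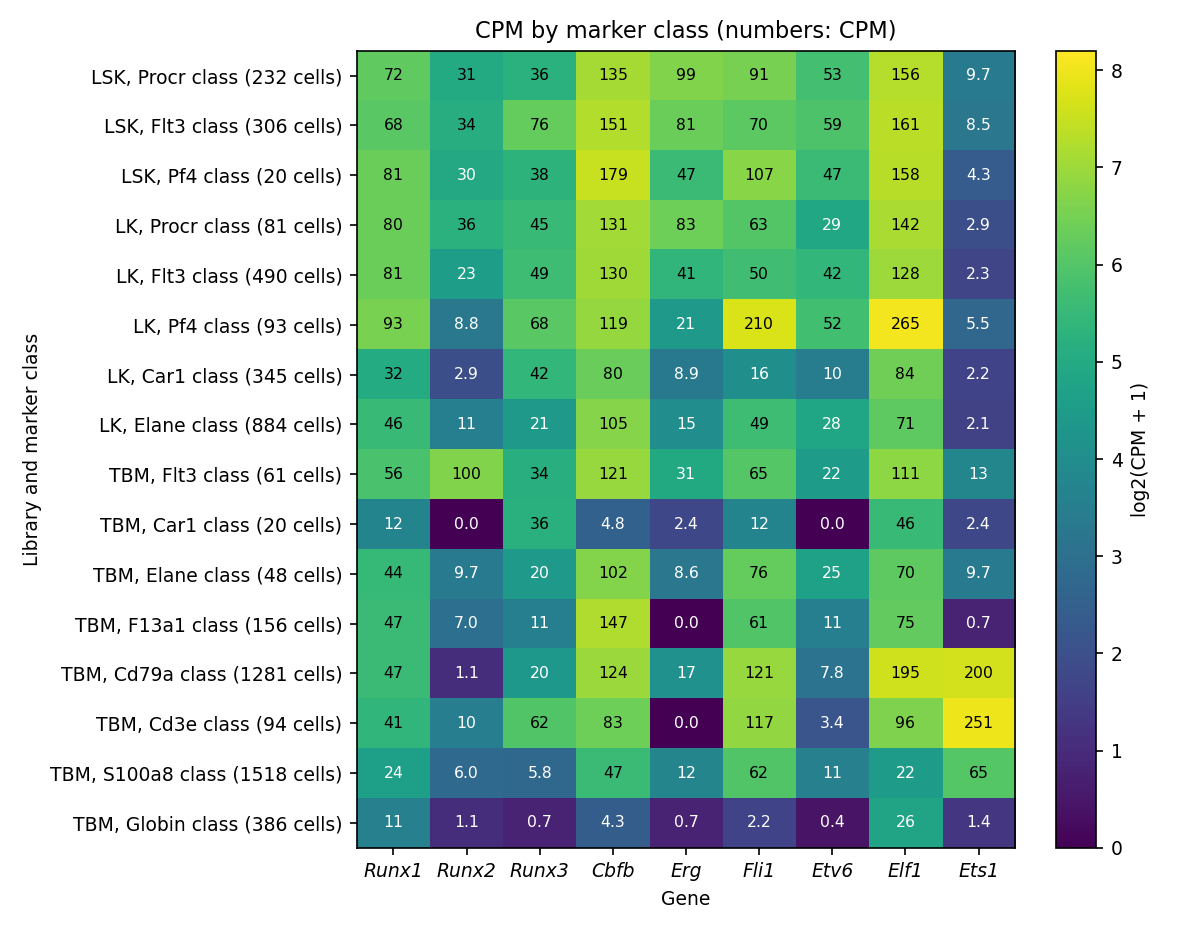
CPM of the 9 genes (columns) in the 16 marker classes with at least 20 cells (rows), shaded on a log2 scale of CPM + 1. Fli1 is highest in the Pf4 class of LK (209.9 CPM), Runx2 in the Flt3 class of TBM (99.6 CPM) and Ets1 in the Cd3e class of TBM (251 CPM).

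Levels of Erg, Ets1, Fli1 and Runx3 differed between early and later B lineage cells. The Cd79a class was divided, after its values were seen, into 131 cells with a UMI of Dntt, Vpreb1 or Igll1, genes of early B cell precursors, and 1150 cells without. Erg stood at 57.7 CPM (43.1 to 75.7) in the precursor cells and 3.32 CPM (1.52 to 6.30) in the others. Ets1 ran the other way, at 118 CPM (96.4 to 142) against 227 (210 to 246), as did Fli1 at 80.0 (62.6 to 101) against 135 (121 to 149) and Runx3 at 6.66 (2.45 to 14.5) against 24.0 (18.5 to 30.6). Runx1, Runx2, Cbfb, Elf1 and Etv6 had overlapping intervals. The precursor cells were deeper, with a median of 5240 UMIs per cell against 1912.

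Neutrophils of TBM also carried Ets1. In the S100a8 class Ets1 stood at 65.3 CPM (59.5 to 71.6), against 9.70 CPM (4.43 to 18.4) in the Elane class of the same library, 0.705 CPM in the F13a1 class and 1.44 CPM in the globin class. On a scale without globin, S100a8, S100a9, ribosomal protein and mitochondrial genes the S100a8 class stood at 108 CPM and the globin class at 4.34. Ets1 was 6.74-fold higher in the S100a8 class than in the Elane class (log2 ratio 2.75, 1.81 to 3.89), while the median of all genes was -0.82 there and Runx3, Elf1, Etv6, Cbfb and Runx1 ranged from -1.81 to -0.91.

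Within the S100a8 class, divided after its values were seen, Ets1 was at 70.6 CPM (64.2 to 77.4) in the 1097 cells with 1% or more of their UMIs from the granule genes Camp, Ngp and Ltf. It was at 16.1 CPM (8.02 to 28.8), on 11 UMIs, in the other 421 cells. The granule-rich cells were deeper, with a median of 4513 UMIs per cell against 1437. Erg was at 13.4 CPM (10.7 to 16.5) in the granule-rich cells and had 1 UMI in the others, and Etv6 was lower in the granule-rich cells, at 9.59 (7.34 to 12.3) against 23.4 (13.4 to 38.0). Lymphocyte RNA was present in some of these cells: 260 had a UMI of Cd79a, Cd79b, Cd3e or Trbc2, with Ets1 at 80.6 CPM (67.8 to 95.2). In the 1258 cells without any, Ets1 was at 60.3 CPM (53.9 to 67.3) and Erg at 11.7 (8.94 to 14.9).

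Runx2 had its highest level in the 61 Flt3 cells of TBM, at 99.6 CPM (75.1 to 130), ahead of 36.5 CPM (23.6 to 53.9) in the Procr class of LK. It was 4.25-fold higher there than in the Flt3 class of LK (log2 ratio of LK over TBM -2.09, -2.55 to -1.61). The 22 of these cells with a UMI of Siglech, a surface marker of plasmacytoid dendritic cells, had Runx2 at 236 CPM (164 to 328), and the 39 without it at 49.5 CPM (30.3 to 76.5). Erg was at 6.75 CPM (0.171 to 37.6) with Siglech and 39.6 (22.6 to 64.3) without it, on 1 and 16 UMIs, with overlapping intervals. The Siglech division was also chosen after the values were seen. The cells with Siglech had a median of 5402.5 UMIs per cell and those without it 10784. In these 2 sets, 1 cell held 17.1% and 30% of the Runx2 UMIs.

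**Figure D3:**
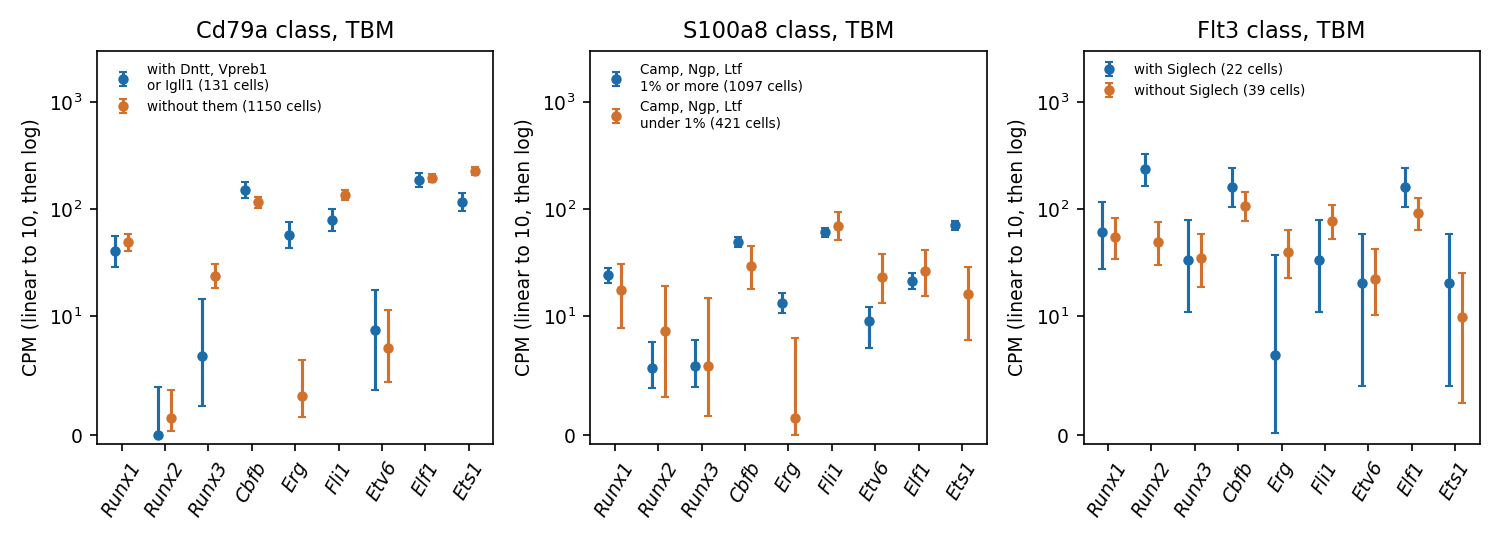
CPM of the 9 genes with exact Poisson intervals in 3 TBM classes divided by other markers, on an axis linear to 10 CPM and logarithmic above. Erg separates the Cd79a cells (57.7 against 3.32 CPM), Ets1 the S100a8 cells (70.6 against 16.1) and Runx2 the Flt3 cells (236 against 49.5).

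Erg had no UMI in the 156 F13a1 cells of TBM, none in the 94 Cd3e cells and none in the 435 TBM cells positive for no marker, where the floor of 3 UMIs stands at 2.11, 10.3 and 1.53 CPM. At the other end it stood at 99.5 CPM (86.3 to 114) in the Procr class of LSK, 83.2 (63.0 to 108) in the Procr class of LK and 81.4 (72.4 to 91.2) in the Flt3 class of LSK. These CPM intervals overlap, while the interval of the ratio between the Flt3 and Procr classes of LSK, given above, lies just below 0. Erythroblasts had little of most members. In the globin class Elf1 was at 26.4 CPM (20.7 to 33.1) and Runx1 at 10.8 (7.31 to 15.5), and the other members were between 0.361 and 4.33 CPM. Globin RNA took 62.3% of the UMIs of that class, and on the scale without the abundant genes Elf1 came to 79.2 and Runx1 to 32.5 CPM. In the 20 Car1 cells of TBM, Cbfb had 2 UMIs (4.83 CPM) against 79.7 CPM in the Car1 class of LK, and these TBM cells carried Hba-a1 at 5409 CPM against 28.3.

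The same class was also compared between libraries, though its cells were not alike in other RNA. The neutrophil-committed gene Mpo stood at 69.9 CPM in the Procr class of LSK and 1589 in that of LK. In the Flt3 class it stood at 392 and 3277 CPM, and in cells positive for no marker at 173 and 2285. The part of such differences in the ratios below was not tested. Erg in the Procr class was 0.26 (-0.17 to 0.71) higher in LSK than in LK on the log2 scale, a difference its interval does not separate from 0. In the Flt3 class it was 0.98 (0.73 to 1.22) higher in LSK, and in cells positive for no marker 1.06 (0.83 to 1.29) higher. Ets1 in the Flt3 class was 1.88 (0.93 to 2.91) higher in LSK, on 31 and 14 UMIs. The log2 ratio of Runx2 in LSK over LK was -0.23 (-0.92 to 0.50) in the Procr class, 0.52 (0.16 to 0.88) in the Flt3 class and 1.02 (0.62 to 1.41) in the cells positive for no marker. Etv6 and Fli1 were higher in LSK in the Procr class, by 0.86 (0.16 to 1.62) and 0.53 (0.05 to 1.05). Runx1 was lower in LSK in the cells positive for no marker, at 70.0 against 95.8 CPM (-0.45, -0.68 to -0.23), and in the Flt3 class (-0.26, -0.48 to -0.03). Of those LK cells, the 271 with 5 or more UMIs of the mast cell and basophil gene Cpa3 had Runx1 at 121 CPM (108 to 134), and the other 676 had it at 83.1 (75.7 to 91.0).

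Pf4 cells of LSK, 20 in number, had Fli1 at 107 CPM (69.1 to 158), less than those of LK (log2 ratio of LSK over LK -0.97, -1.64 to -0.37). Between the Elane cells of LK and TBM, the log2 ratios of Runx1, Runx2, Runx3, Cbfb, Etv6 and Elf1 were between 0.01 and 0.18, with intervals that span 0, as did that of Erg (0.83, -0.17 to 2.06). In those Elane cells Fli1 was lower in LK (-0.63, -0.98 to -0.26), and so was Ets1 (-2.21, -3.29 to -0.97, on 36 and 9 UMIs). S100a8 stood at 7050 CPM in the Elane class of TBM and 90.9 CPM in that of LK, and its part in these 2 differences was not tested.

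**Figure D4:**
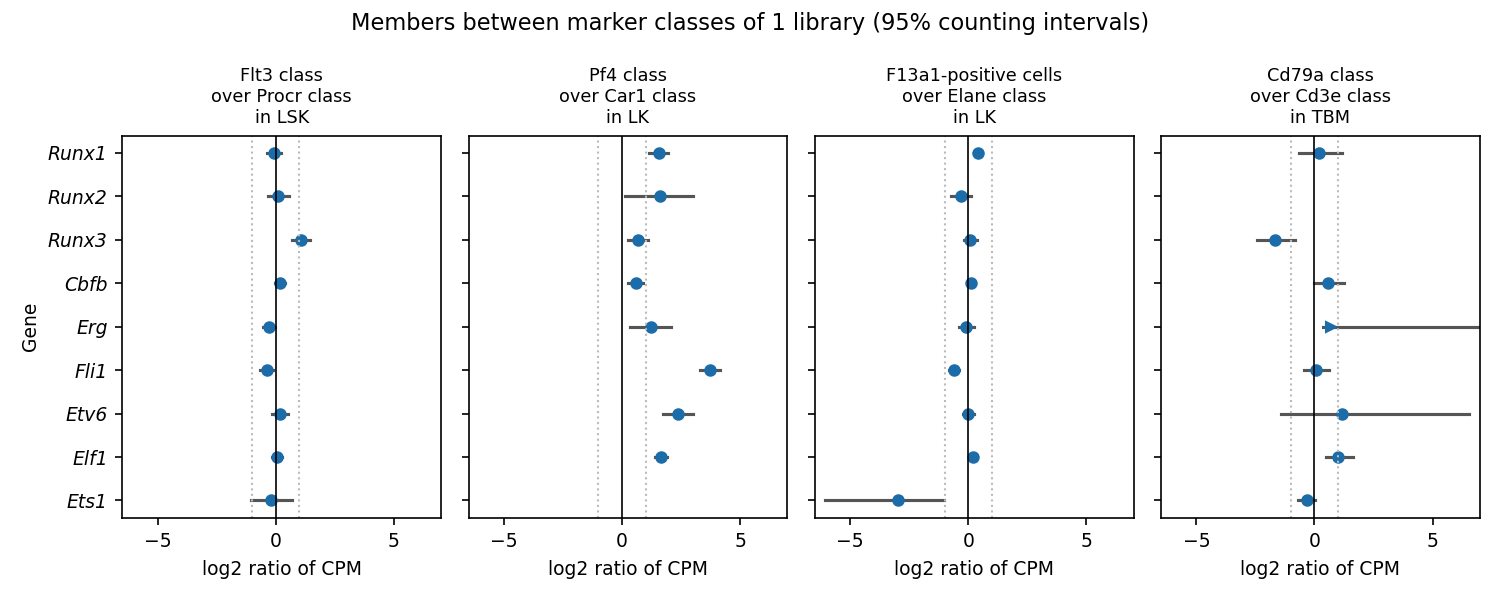
Log2 ratios of CPM for the 9 genes in the 4 comparisons between marker classes, with exact intervals. Dotted lines mark 2-fold, the triangle is Erg set against a floor of 3 UMIs, and genes with under 20 UMIs over both classes are not drawn. Fli1 reaches 3.73 for Pf4 over Car1 cells in LK, and Runx3 is at 1.06 for Flt3 over Procr cells in LSK and -1.66 for Cd79a over Cd3e cells in TBM.

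Co-detection of the members in single cells of LSK was close to what their separate shares give. In LSK thinned to 2000 UMIs, 28 of the 36 pairs could be measured (at least 5 cells from the product of shares), with a median ratio of observed to product of 1.0, and no interval left 1 out. Runx1 and Cbfb, which form 1 complex as proteins, were seen together in 35 cells against 36.2 from the product, a ratio of 0.97 (0.67 to 1.35). Erg and Fli1 shared 25 cells against 24.4. Without thinning, 323 of 1067 LSK cells had UMIs of both Runx1 and Erg.

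In LK the median ratio over 28 pairs was 1.10. Runx2 with Elf1 (37 cells, 1.66, 1.17 to 2.28), Erg with Etv6 (21 cells, 1.63, 1.01 to 2.50) and Fli1 with Elf1 (88 cells, 1.32, 1.06 to 1.62) were above 1, and Runx2 with Cbfb (12 cells, 0.54, 0.28 to 0.94) was below. In the LK cells positive for no marker, the median was 0.94 over 24 pairs, and 2 intervals lay below 1. Runx2 and Cbfb, the lowest pair there, shared 0 cells against 6.52 from the product. These pair counts come from 1 random thinning. Without thinning, Runx2 was seen with Cbfb in 427 LK cells and with Elf1 also in 427. Of 3461 LK cells, 559 then had Runx2, 2487 Cbfb and 2478 Elf1, so the opposite directions of these 2 pairs were seen only after thinning. In TBM the median was 1.28 over 26 pairs, and 5 intervals lay above 1, led by Fli1 with Ets1 (75 cells, 1.57, 1.23 to 1.97). Within single classes of TBM the median was 0.94 over 12 pairs in Cd79a cells and 1.01 over 5 pairs in S100a8 cells. In the TBM cells positive for no marker it was 1.25 over 3 pairs. In the Cd79a class Fli1 and Elf1 were seen together in 24 cells against 36.3 from the product (0.66, 0.42 to 0.98). At this depth, no UMI of any of the 9 genes was seen in 25.4% of the LSK cells, 40.2% of the LK cells and 54.2% of the TBM cells, and in 91.1% of globin cells against 23.3% of Cd79a cells.

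**Figure D5:**
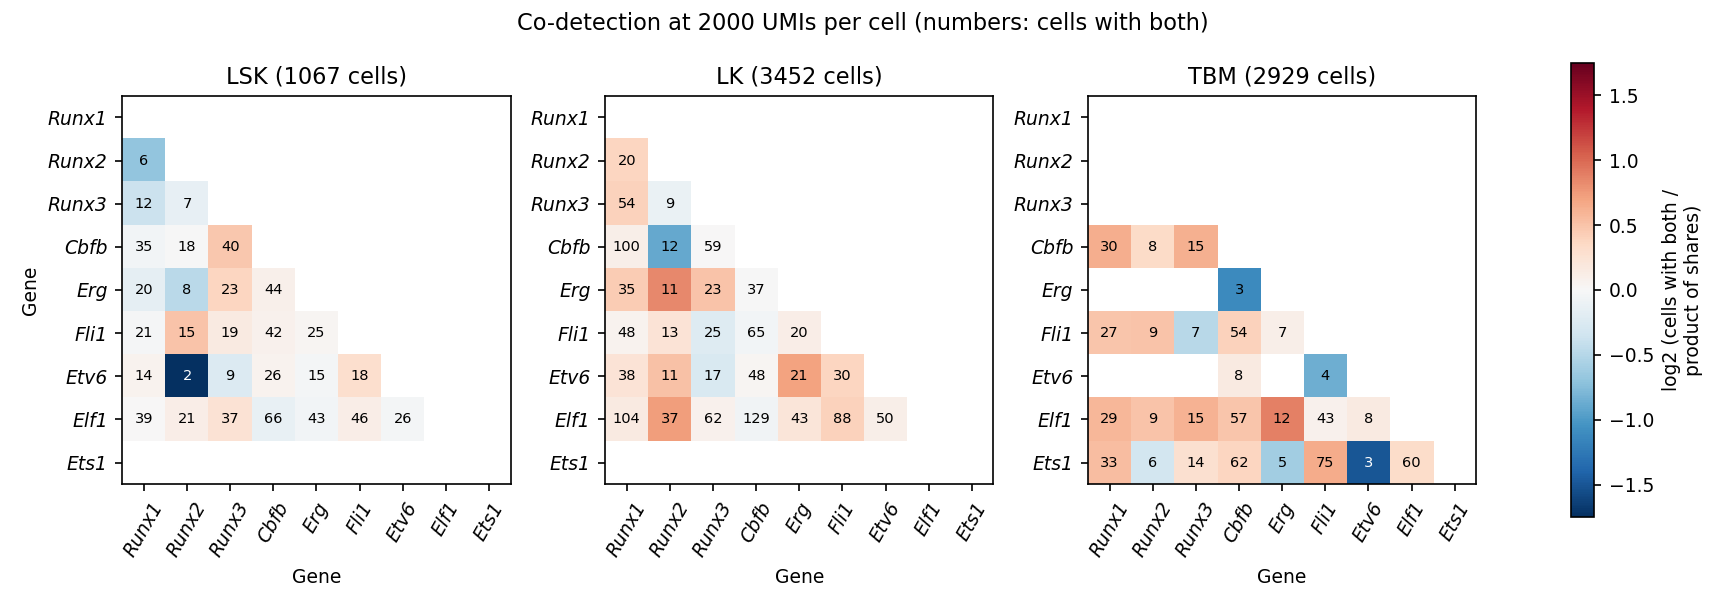
Log2 of the number of cells with both genes over the number from the product of their shares, for each pair in LSK, LK and TBM thinned to 2000 UMIs per cell; numbers are cells with both, and blank squares are pairs with under 5 cells from the product. The median ratio is 1.0 in LSK, 1.10 in LK and 1.28 in TBM.

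Across 19 groups of at least 50 cells, which are 13 marker classes and, in each library, the cells positive for several markers and for none, the members' log2(CPM + 1) patterns were most alike for Runx1 with Etv6 and Runx1 with Cbfb, both at Pearson r of 0.86. Erg and Fli1, closely related ETS genes, had r of 0.26, and Ets1 ranged from -0.29 with Etv6 to 0.44 with Fli1. These points share libraries and composition, and r is a description with no test. Among 8390 other genes, the patterns most like Erg's were those of Gm49708, Egfl7 and 9330020H09Rik (r of 0.89, 0.88 and 0.88), and those most like Ets1's were Iqsec1, Cd2 and Rnf167 (0.89, 0.88 and 0.87). For Runx1 they were BC029722, Rbpms and Map2k5 (each 0.93), for Runx2 Nek6, Ccnd1 and Fut7 (0.88, 0.87 and 0.85), and for Runx3 Chd4, Senp6 and Rnf138 (each 0.95). For Cbfb they were Naxe, Fundc1 and Tm9sf3 (each 0.98), and for Fli1 Grcc10, Tmx3 and Was (0.91, 0.91 and 0.90). For Etv6 they were Tbc1d9b, Dtnbp1 and Pgap2 (0.97, 0.96 and 0.95), and for Elf1 Rabgap1l, Puf60 and Phf6 (0.96, 0.95 and 0.95).

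Other ETS genes followed the gates in part. Of 14 measured between LSK and LK, 7 were at least 2-fold higher in LSK (Elk1, Elk3, Elk4, Spic, Etv3, Etv4 and Etv5) and none lower, with a median log2 ratio of 1.02 against 0.34 over all genes, of which 19.9% were at least 2-fold higher and 3.73% lower. Etv5 reached 2.09 (12.7 against 2.98 CPM), Etv3 1.90 (21.6 against 5.79) and Elk3 1.36 (46.7 against 18.2), while Spic and Etv4 had 15 and 16 UMIs in LSK. Spi1, which encodes PU.1, the factor of myeloid and B cell fate, was lower in LSK, at 150 against 248 CPM (-0.73, -0.80 to -0.66). Between LK and TBM, Erf was higher in LK and Spib, Spic and Elf4 were lower, with Spib, a B cell and plasmacytoid dendritic cell factor, at 0.100 against 89.2 CPM. Over all genes the shares were 27.3% higher and 16.8% lower. Between LSK and TBM, Elk1, Elk3, Etv3, Etv5, Elf2 and Erf were higher and Spi1 and Spib lower, beside 36.9% and 13.1% of all genes. In TBM, Spib stood at 487 CPM in Cd79a cells and 17.2 in Cd3e cells, Spi1 at 173 and 3.44, and Erf had 17 UMIs in Cd79a cells and 4 in Cd3e cells, at 4.71 and 13.8 CPM (log2 ratio -1.55, -3.16 to 0.48). Between these classes 15.3% of all genes were at least 2-fold higher in Cd79a cells and 8.7% lower.

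Co-regulators of core-binding factor, the corepressors, acetylases and methylases that Runx proteins recruit, were higher in LSK than LK for 7 of 17: Cbfa2t2, Cbfa2t3, Runx1t1, Tle1, Tle2, Tle4 and Kmt2a. Tle2, a Groucho corepressor, had a log2 ratio of 2.71 (11.4 against 1.74 CPM), and Runx1t1 4.54 on 22 and 4 UMIs. None was lower, and the shares over all genes were 19.9% higher and 3.73% lower. Between LK and TBM, 4 were higher in LK (Tle2, Hdac2, Hdac3 and Prmt1) and Runx1t1 was lower, beside 27.3% and 16.8% of all genes. Between LSK and TBM, 7 were higher in LSK: Cbfa2t2, Cbfa2t3, Tle2, Hdac2, Hdac3, Prmt1 and Kmt2a, against 36.9% of all genes. Tle2 was the 1 co-regulator lower in Flt3 than in Procr cells of LSK (-1.32, -1.99 to -0.65), where 5.51% of all genes were. In Cd79a over Cd3e cells Cbfa2t3 and Hdac3 were higher and Tle5 lower, at 178 against 537 CPM, beside 15.3% and 8.7% of all genes.

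Of 8 partner genes of the stem cell factor complex, Tal1 and Meis1 passed 2-fold toward LSK over LK, and Gata1, the erythroid and megakaryocyte GATA factor, was lower, beside 19.9% and 3.73% of all genes. Meis1 fell from 148 CPM to 37.9 and 3.83 over LSK, LK and TBM, an order like that of Erg. Lmo2, Gata2, Ldb1 and Meis1 were higher in LK than TBM, and Lyl1, Lmo2, Gata2, Ldb1 and Meis1 higher in LSK than TBM, with Gata1 lower in LSK. These 4 and 5 stand beside 27.3% and 36.9% of all genes, and Gata1 beside 13.1%. Gata2 was lower in Flt3 than Procr cells of LSK, at 86.6 against 190 CPM, beside 5.51% of all genes. In Pf4 over Car1 cells Meis1 was higher by 3.19 on the log2 scale (211 against 23.0 CPM), beside Lmo2 and the ETS gene Elk3, and Ldb1 was lower (37.4 against 87.6 CPM), where 8.92% of all genes were higher and 6.54% lower. Gata2 (-1.44) and Gfi1b (on 3 and 21 UMIs) were lower in the F13a1-positive than the Elane cells of LK, as 3.73% of all genes were. Lyl1 and Lmo2 were higher in Cd79a than Cd3e cells, on 3 and 2 UMIs in the latter, beside 15.3% of all genes.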

How the data were processed

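The authors deposited whole-number UMI counts for each gene in each barcode, not normalized, per the file headers. The submitters' processing notes name Cell Ranger 4.0.0 and mm10. For annotation, cell calling and doublets the settings are not given in the sources used. Barcodes needed 200 genes or more and no more than 10% mitochondrial UMIs, and Scrublet (scanpy 1.11.5) removed 3 LSK, 3 LK and 73 TBM doublets. That is 0.280%, 0.0866% and 1.70% of cells, so many doublets were probably missed. Free RNA was not subtracted. CPM are summed UMIs over total UMIs with exact Poisson intervals, shares have exact Clopper-Pearson intervals, and log2 ratios have exact conditional binomial intervals (Python 3.11.15, numpy 2.4.6, scipy 1.17.1, pandas 2.3.3, matplotlib 3.10.9). They cover counting error only. A member counts as apart at 2-fold with at least 20 UMIs over both sides, and the calculation was tested on simulated data. PCR duplicates are collapsed by the UMIs.

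The members, lists, marker classes and comparisons were chosen with earlier results of these data known. All 9 members are named, with the 3 genes of most similar pattern for each, and list genes that were 2-fold apart. The planned comparison of F13a1 with Elane cells in LK had 8 F13a1 cells and was replaced, after seeing the data, by all F13a1-positive cells. The divisions of the Cd79a, S100a8, Flt3, Cd3e and unmarked classes were also chosen after seeing the data. Coordinates are from GENCODE M21 and promoter sequence from RefSeq. Alternatives in scaling, cell filters, doublet removal, thresholds and thinning were run.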

Additional observations from a re-analysis of the deposited data

Results flagged for a closer look

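Over all 9 members, 54 contrasts between classes were compared in 2 libraries. In 1 of them, a contrast of Runx3, the 2 intervals lay on opposite sides of 0. Contrasts with intervals that span 0 could also differ in sign. Runx2 in Flt3 over Procr cells, for instance, had log2 ratios of 0.11 in LSK and -0.64 in LK. For Runx3, the log2 ratio of the Flt3 class over the Pf4 class was 0.98 (0.03 to 2.12) in LSK and -0.46 (-0.86 to -0.04) in LK. The LSK value rests on 20 Pf4 cells with 9 Runx3 UMIs, 33.3% of them from 1 cell. Neither value has a replicate library, and the difference between them was not tested.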

How the results depend on the processing

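Each member's log2 ratios were recomputed with other scaling, cell filters, doublet removal, marker thresholds, thinning and without the top cell of each member: 469 of 550 values stayed within the interval first given, 80 moved outside it and 1 of a member at least 2-fold apart changed sign. That 1 was Ets1 in F13a1-positive over Elane cells of LK, at 0.32 in cells thinned to 2000 UMIs, on 1 and 2 UMIs, which give no direction. Of 336 values of ratios under 2-fold, 32 also changed sign, among them Runx1 and Fli1 between gates and Runx1 and Cbfb between classes, as given above. Of 65 counts of members at least 2-fold apart, 57 stayed within 1.5 times. The count for Flt3 over Procr cells of LSK went from 1 to 0 with doubled thresholds and with overlapping classes, and that for F13a1-positive over Elane cells from 1 to 0 with doubled thresholds and with thinning. The count for Pf4 over Car1 cells went from 6 to 2 with every count marker at 1 UMI and with thinning. After thinning, Etv6 kept 9 and 9 UMIs and Erg 3 and 8, too few to count. Runx1 kept 19 UMIs in 93 Pf4 cells and 36 in 344 Car1 cells, enough to count, and came under 2-fold. The count for Cd79a over Cd3e cells went from 3 to 1 with doubled thresholds and on the scale without abundant genes. The causes of these changes were not tested. Of 81 shares of cells computed without thinning or at 1000 or 3000 UMIs, 3 stayed within their interval, since a share follows depth, and the 6 median co-detection ratios at 1000 and 3000 UMIs stayed close to those at 2000. The alternatives planned for the F13a1-only class of LK were not run. No paired analysis was possible because each group is 1 library and no test was made. Depth limits Ets1 in LSK and LK, Etv6, Runx2 and Erg in the lymphoid classes, and every member in classes of 20 to 60 cells.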
